A study of Homo sapiens with 2 samples.

Results

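The 47 genes described here encode serpins and other inhibitors of proteases, out of 22348 genes named on the array. Members were taken by symbol, as genes named SERPIN, TFPI, TFPI2, SPINT1, SPINT2, TIMP1 to TIMP4, RECK, CST1 to CST7, CSTA or CSTB. A gene entered only where a transcript cluster, the array's set of probes for a transcript, carried that symbol and no other in the platform annotation. Of 53 genes looked for, 6 were not analyzed here, and 1 serpin pseudogene was left out. Each of the 47 genes was measured by a single cluster.

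The lines compared were 2 human serous ovarian carcinoma cell lines. OAW42-R is resistant to cisplatin and was selected from OAW42, its cisplatin-sensitive parent, by rounds of rising drug dose and drug-free growth. Both were untreated at harvest and grown in the same insulin-supplemented medium, and total RNA of each was hybridized to 1 whole-transcript array. With 1 array per line no error could be measured and no test between the lines was possible, so every difference below compares these 2 arrays. OAW42-R is 1 selected line, and selection for resistance, time in culture and the state of a culture cannot be told apart. Signals are RMA values on the log2 scale, and differences are OAW42-R minus OAW42, where 1 is a 2-fold difference. RMA is a normalization that corrects background, makes the arrays' distributions alike and summarizes the probes of a cluster. The floor was the median of all clusters on an array, and a gene passed it on the array where it was brighter (6.34 in OAW42-R cells, against 6.30 in OAW42 cells). Probes of different genes differ in how brightly they bind, so signals were compared between lines and not between genes.

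Serpins are proteins that trap a serine or cysteine protease by offering a bait loop, after which inhibitor and enzyme stay joined. Kunitz inhibitors such as TFPI and the SPINT proteins plug the active site of serine proteases, TIMPs bind the catalytic zinc of matrix metalloproteinases, and cystatins block cysteine cathepsins. Together they limit clotting, plasmin formation and the breakdown of extracellular matrix. Some serpins inhibit nothing and serve instead as hormone carriers or as a collagen chaperone.

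Of the 47 genes, 28 were above the floor, against 15910 of all 22348 genes. The largest difference was that of a Kunitz inhibitor. TFPI2, which holds back plasmin and trypsin in the matrix, was 6.92-fold lower in OAW42-R. TFPI, which stops the tissue factor pathway of clotting, and SPINT2, an inhibitor of the enzymes that activate hepatocyte growth factor, were higher by 1.495-fold and 1.37-fold. Among the serpins SERPINE2, an inhibitor of thrombin and urokinase, was 1.67-fold lower, and among the cystatins CST1 was 1.32-fold lower. Of the 28 genes, 17 lay within 0.2 of equality. The 19 genes below the floor had signals between 3.24 and 6.15 and differed by between -0.23 and 0.16. In RNA of whole cultures, fewer cells that express a gene and less of its RNA per cell cannot be told apart.

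TFPI2 was at least 2-fold lower and no inhibitor gene was at least 2-fold higher. Among all 15910 genes above the floor, 0.333% were at least 2-fold lower and 0.541% at least 2-fold higher. At least 1.5-fold lower were TFPI2 and SERPINE2, 2 of the 28 genes, against 1.31% of all genes, and none was 1.5-fold higher, against 2.02%. A difference of at least 0.4 in size was reached by 5 of the 28, TFPI2, SERPINE2 and CST1 on the lower side, where 3.31% of all genes lay, and TFPI and SPINT2 on the higher side, where 4.44% lay. With so few genes these counts describe the list and do not set it apart from other genes.

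Signals were lower in OAW42-R for 17 of the 28 genes, higher for 9 and equal for 2, with a median difference of -0.075. Over all genes 49.7% were lower and the median difference was 0.00. The lean depended on the floor, since 6 genes were lower and 6 higher when the brighter array had to reach the 75th percentile. The median size of a difference, whatever its sign, was 0.12 for the inhibitors and 0.10 for all genes. The genes within 0.2 of equality were 60.7% of the inhibitors and 75.1% of all genes.

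**Figure D1:**
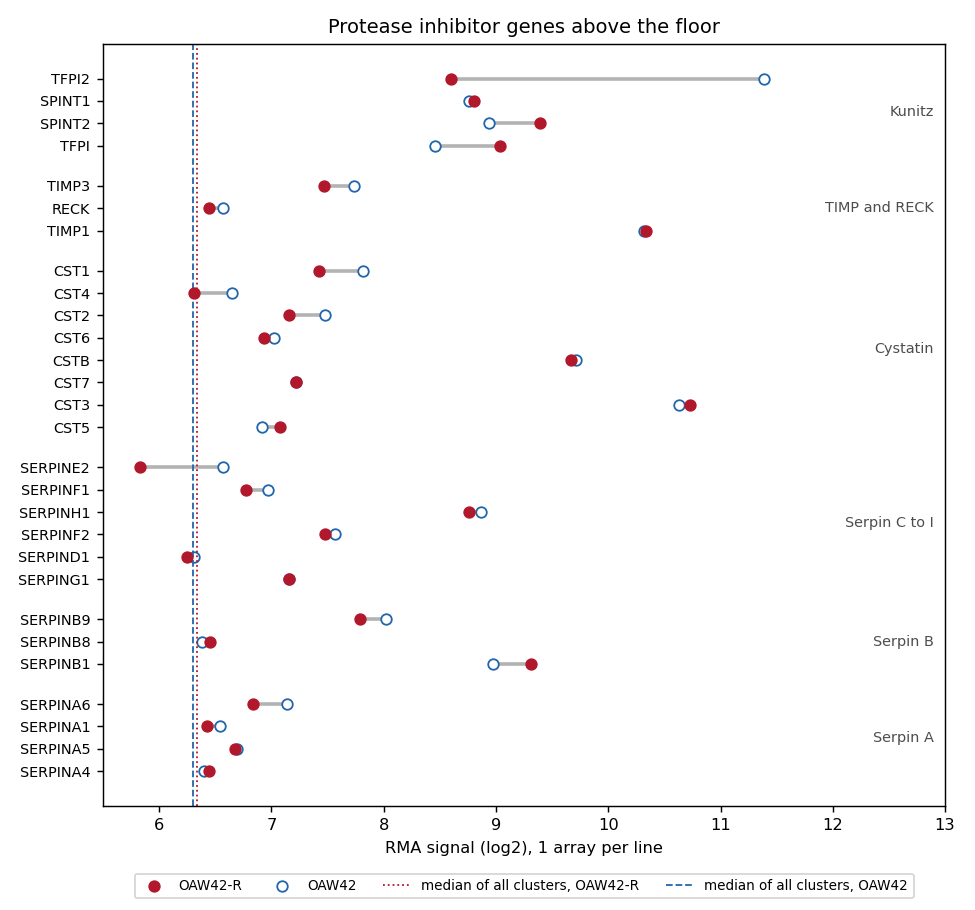
RMA signal (log2, x axis) of the 28 inhibitor genes above the floor in OAW42-R (filled red) and OAW42 (open blue), 1 array per line, grouped by family, with vertical lines at the median of all clusters on each array. TFPI2 has the widest gap, with 8.60 in OAW42-R cells, compared with 11.39 in OAW42 cells, and the OAW42-R points of SERPINE2 (5.83), CST4 (6.31) and SERPIND1 (6.25) lie left of that array's median.

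**Figure D2:**
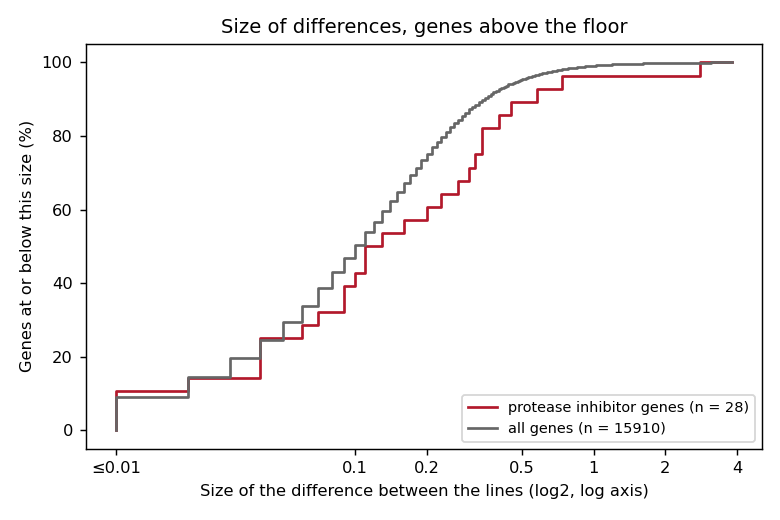
Percentage of genes (y axis) whose difference between OAW42-R and OAW42 is at or below a given size (log2, logarithmic x axis), for the 28 inhibitor genes (red) and all 15910 genes above the floor (gray). The medians are 0.12 and 0.10, and the red line ends with TFPI2 at 2.79.

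TFPI2 and TFPI are related Kunitz inhibitors with different partners and differed in opposite directions. TFPI2 (transcript cluster TC07001611.hg.1, chromosome 7) gave a log2 signal of 8.60 in OAW42-R cells and 11.39 in OAW42 cells, a difference of -2.79. It was the 4th lowest difference of all genes above the floor, and its signal stood at the 85.4th percentile of clusters in OAW42-R and at the 98.9th in OAW42. Both arrays were thus well above the floor for this gene. TFPI (TC02002606.hg.1, chromosome 2) gave 9.04 in OAW42-R cells, against 8.46 in OAW42 cells, a difference of 0.58, which 3.45% of all genes matched or passed in size. The other Kunitz inhibitors are the membrane-bound partners of matriptase and hepsin. SPINT2 (TC19000522.hg.1, chromosome 19) gave 9.39 in OAW42-R cells, compared with 8.94 in OAW42 cells (difference 0.45). SPINT1 was nearly equal, with 8.80 in OAW42-R cells and 8.76 in OAW42 cells.

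The sequences before the transcription start are shown for TFPI2, TFPI and SERPINE2, the genes with the largest differences, to place them beside their signals. They are the 250 bases upstream of each start in the RefSeq promoter table of build GRCh38.p14, read 5′ to 3′ on the strand of the gene, with CpG dinucleotides, the sites of DNA methylation, in capitals. All of them lie on the minus strand, TFPI2 at chr7:93890754-93891003, TFPI at chr2:187554436-187554685 and the more upstream of the starts of SERPINE2 at chr2:224038641-224038890. The table had no entry for SPINT2 and CST1.
TFPI2: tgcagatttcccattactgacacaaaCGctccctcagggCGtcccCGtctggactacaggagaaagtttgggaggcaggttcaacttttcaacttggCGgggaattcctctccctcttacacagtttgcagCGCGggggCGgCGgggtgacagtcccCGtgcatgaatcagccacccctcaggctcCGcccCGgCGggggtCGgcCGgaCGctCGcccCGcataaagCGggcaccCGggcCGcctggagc
TFPI: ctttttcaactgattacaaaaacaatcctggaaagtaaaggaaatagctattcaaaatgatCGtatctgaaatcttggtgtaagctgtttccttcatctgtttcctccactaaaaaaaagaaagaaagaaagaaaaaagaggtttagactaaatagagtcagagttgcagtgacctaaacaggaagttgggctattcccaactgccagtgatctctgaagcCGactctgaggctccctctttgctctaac
SERPINE2: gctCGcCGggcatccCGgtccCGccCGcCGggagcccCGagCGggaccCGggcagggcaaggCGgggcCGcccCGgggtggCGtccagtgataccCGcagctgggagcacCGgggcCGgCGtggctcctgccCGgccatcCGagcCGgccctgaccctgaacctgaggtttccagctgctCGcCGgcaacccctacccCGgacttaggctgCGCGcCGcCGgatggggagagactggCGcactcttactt
TFPI2 has 20 CpGs in this window, more than TFPI with 2 and fewer than SERPINE2 with 28. The median over all 35116 windows of the table was 11. The downstream start of SERPINE2, not shown, has 6 CpGs, and which start the array's probes follow is not known. Motifs were searched on both strands. The AP-1 motif TGANTCA occurs in TFPI2 at bases 87 to 81 before the start, as TGAATCA, and in 6.6% of all windows. The GC box GGGCGG occurs at 2 places in TFPI2 and at 2 in SERPINE2, without overlap with the AP-1 motif, and in 42.6% of all windows. The TATA box TATAAA (10.7% of windows) and the hypoxia element ACGTG (18.5%) have no match in the windows shown, although the downstream start of SERPINE2 holds ACGTG and a GC box, and TFPI has no match to any of these motifs. A match is a run of letters and not a measured binding site.

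Over all inhibitors, 34 of the 47 genes had an entry in the table. Methylation was not measured.

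None of the 10 genes nearest to TFPI2 differed by as much, but GNG11 and CDK6 were also lower by at least 0.4. Among all genes above the floor, 3.31% were lower by at least 0.4. Whether the region differed as a whole was not tested. GNG11, the next gene above the floor and a G protein subunit, had a signal of 8.80 in OAW42-R cells and 9.50 in OAW42 cells (difference -0.70). CDK6, a cell cycle kinase on the other side, had 5.96 in OAW42-R cells, against 6.48 in OAW42 cells (difference -0.52), with the OAW42-R value under the array median. The remaining 8 of the 10 nearest genes differed by between -0.03 and 0.18. Next to TFPI, the receptor gene CALCRL differed by 1.28, with a signal of 9.0 in OAW42-R cells, compared with 7.72 in OAW42 cells. Of the 10 neighbors of TFPI, 8 were lower, beside 49.7% of all genes. Beside SPINT2, SIPA1L3 differed by 0.77 and the median of 10 neighbors was 0.025. Gene order was taken from RefSeq.

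**Figure D3:**
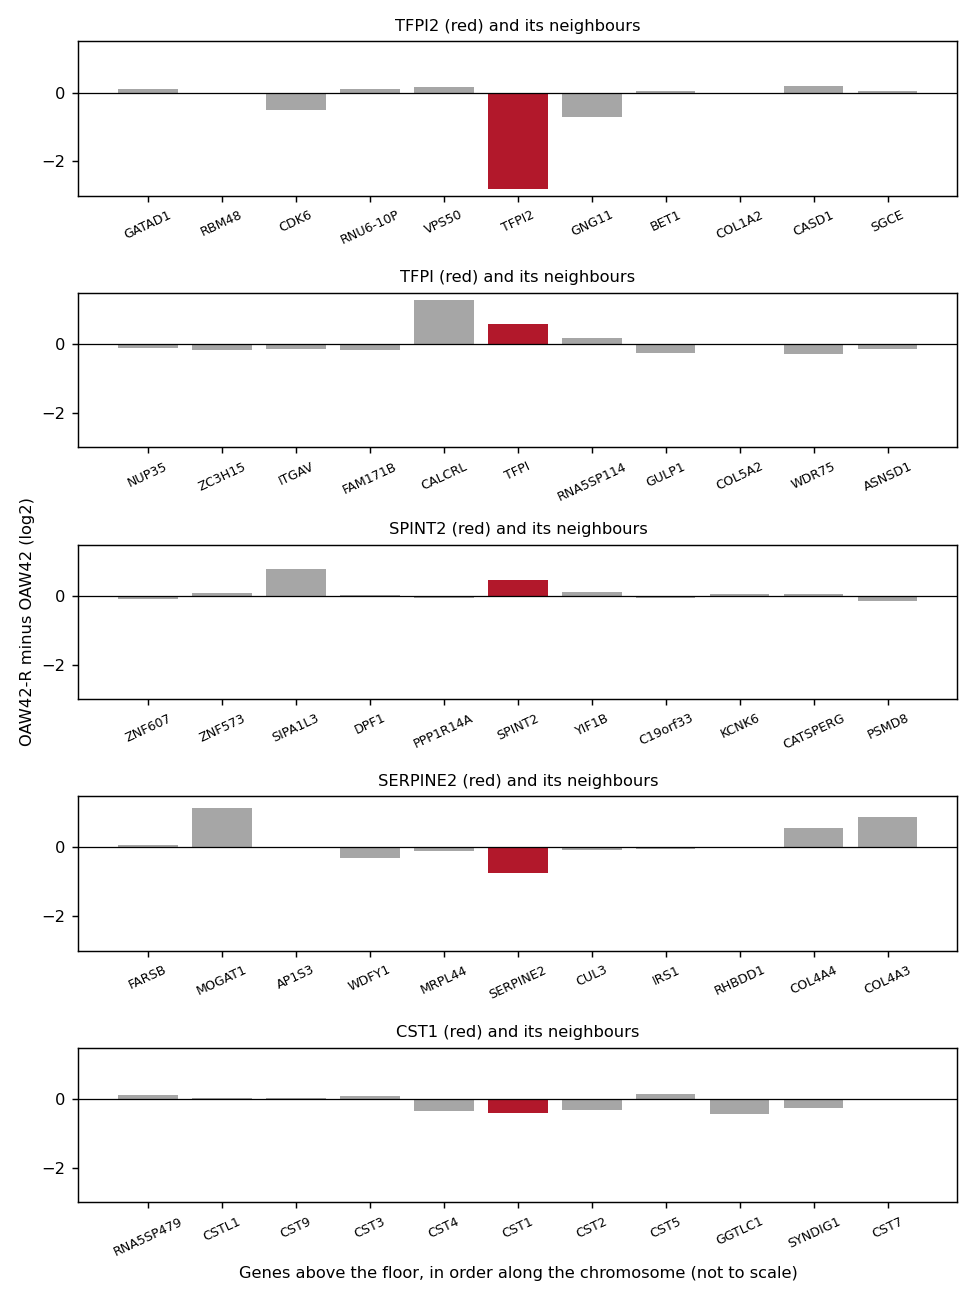
Difference OAW42-R minus OAW42 (log2, y axis) of TFPI2, TFPI, SPINT2, SERPINE2 and CST1 (red) and up to 5 genes above the floor on each side (gray), in chromosomal order. TFPI2 at -2.79 stands beside GNG11 at -0.70, TFPI at 0.58 beside CALCRL at 1.28, and CST1 at -0.40 between CST4 at -0.34 and CST2 at -0.32.

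The serpins of clades C to I include plasma and matrix regulators. SERPINE2 (TC02002823.hg.1, chromosome 2), or protease nexin, gave 5.83 in OAW42-R cells and 6.57 in OAW42 cells, a difference of -0.74 that 1.96% of all genes matched or passed in size. Its OAW42-R signal lay below the array's median and its OAW42 signal just above, so its fold compares low levels, and it was not counted under the stricter floor. Of the 10 genes beside SERPINE2, 5 were lower and 5 higher, among them MOGAT1 at 1.15 and the type IV collagen genes COL4A3 and COL4A4 at 0.88 and 0.56. SERPINF1, which encodes the antiangiogenic factor PEDF, had 6.77 in OAW42-R cells, against 6.97 in OAW42 cells (difference -0.20). SERPINH1, the collagen chaperone HSP47, had 8.76 in OAW42-R cells, compared with 8.87 in OAW42 cells (difference -0.11). SERPINF2, or antiplasmin, SERPIND1, or heparin cofactor II, and SERPING1, the C1 inhibitor of complement, differed by -0.09, -0.06 and 0.00. Of the 6 genes above the floor in this group, 5 were lower in OAW42-R and 1 was equal, beside 49.7% lower among all genes. Within 0.2 of equality lay 5 of the 6, so the sign count is only a description. Below the floor were the genes of antithrombin (SERPINC1), of neuroserpin (SERPINI1), SERPINE3 and SERPINI2, which differed by between -0.14 and 0.06.

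Clade B serpins mostly stay inside the cell. SERPINB1, which inhibits neutrophil elastase and related enzymes, had a signal of 9.31 in OAW42-R cells and 8.97 in OAW42 cells (difference 0.34). SERPINB9, the inhibitor of granzyme B that shields cells from cytotoxic lymphocytes, had 7.79 in OAW42-R cells, against 8.02 in OAW42 cells (difference -0.23). These genes lie close together on chromosome 6 and differed in opposite directions. SERPINB8, a furin inhibitor, had 6.45 in OAW42-R cells, compared with 6.38 in OAW42 cells (difference 0.07). The other 7 measured genes of the clade, SERPINB3, SERPINB4, SERPINB5 (maspin), SERPINB7, SERPINB11, SERPINB12 and SERPINB13, were below the floor. They belong with SERPINB8 to a run of 8 genes on chromosome 18, where differences ran from -0.12 to 0.11. SERPINB3 and SERPINB4 are close in sequence, so their probes may share signal.

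Clade A serpins are made chiefly by the liver. SERPINA6, the cortisol carrier of blood, had a signal of 6.84 in OAW42-R cells and 7.14 in OAW42 cells (difference -0.30). SERPINA1, or alpha-1-antitrypsin, had 6.43 in OAW42-R cells, against 6.54 in OAW42 cells (difference -0.11). SERPINA5, the protein C inhibitor, and SERPINA4, or kallistatin, differed by -0.01 and 0.04. The remaining 6 measured genes, SERPINA3, SERPINA7, SERPINA9, SERPINA10, SERPINA11 and SERPINA12, were below the floor and differed by between -0.23 and 0.16. On chromosome 14, where 9 of the clade A genes stand side by side, 5 were lower, 3 higher and the median was -0.01. Of the hepatocyte markers, ALB was at 4.29 on both arrays, and 2 of 5 measured markers, APOA1 and APOA2, were above the floor.

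Of the metalloproteinase inhibitors above the floor, TIMP1 and RECK lay within 0.2 of equality and TIMP3 did not. TIMP1 had a signal of 10.34 in OAW42-R cells, compared with 10.32 in OAW42 cells (difference 0.02). TIMP3, which stays bound to the matrix, had 7.47 in OAW42-R cells and 7.74 in OAW42 cells (difference -0.27). RECK, a membrane-anchored inhibitor, had 6.44 in OAW42-R cells, against 6.57 in OAW42 cells (difference -0.13). TIMP4 was below the floor, at 5.51 in OAW42-R cells and 5.53 in OAW42 cells.

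Among the cystatins, the salivary type genes CST1, CST4 and CST2 were lower together. CST1 (TC20000718.hg.1, chromosome 20) gave 7.42 in OAW42-R cells, compared with 7.82 in OAW42 cells (difference -0.40). CST4 had 6.31 in OAW42-R cells, under the median there, and 6.65 in OAW42 cells (difference -0.34). CST2 had 7.16 in OAW42-R cells and 7.48 in OAW42 cells (difference -0.32). These 3 genes are neighbors on chromosome 20 and near-identical copies, so they may not be separate measurements. The cystatins CST3 and CST5 on either side of them differed by 0.10 and 0.16, in the other direction, while GGTLC1 beyond CST5 differed by -0.44. CST3, or cystatin C, the broad inhibitor secreted by most cells, had 10.73 in OAW42-R cells, against 10.63 in OAW42 cells (difference 0.10). CSTB, an inhibitor inside the cell, had 9.67 in OAW42-R cells, compared with 9.71 in OAW42 cells, and CST6 and CST7 differed by -0.09 and 0.00. CSTA was below the floor, at 4.52 in OAW42-R cells and 4.71 in OAW42 cells.

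Proteases and other partners of these inhibitors were then followed through 11 lists, in which MMP14, MMP1 and CTSB were the genes above the floor that reached 2-fold. These were 1 lower and 1 higher of 12 matrix metalloproteinases and 1 higher of 10 genes for cathepsins and legumain. Of all genes 0.333% were at least 2-fold lower and 0.541% at least 2-fold higher. With so few genes the counts are a description. In the coagulation list 10 of 11 genes above the floor were lower and 1 higher, with a median difference of -0.10. Among all genes 49.7% were lower. Several of these differences were close to 0, such as those of F2 (-0.02), PROC (-0.01) and PROZ (-0.03). The sign counts of these short lists, here and below, are descriptions. F3, or tissue factor, the starter of clotting that TFPI restrains, had a signal of 6.54 in OAW42-R cells and 7.42 in OAW42 cells, a difference of -0.88. Its sign was opposite to that of TFPI, and the other 10 genes differed by at most 0.14 in size. The factor VII gene F7 and the factor X gene F10, whose products TFPI also binds, differed by -0.03 and -0.10, the thrombin receptor gene F2R by -0.14 and the thrombomodulin gene THBD by -0.13. Plasminogen activation, the system that SERPINE2 restrains, had 4 genes above the floor, 3 higher and 1 lower, with a median of 0.10. The activator gene PLAT had 7.76 in OAW42-R cells, against 7.49 in OAW42 cells (difference 0.27), the plasminogen receptor gene PLGRKT differed by 0.16 and PLAU, which encodes urokinase, by 0.04. Plasminogen itself (PLG) was below the floor.

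Among 12 matrix metalloproteinases above the floor, 9 were lower and 3 higher, with a median of -0.035, beside 49.7% lower among all genes. MMP14, a membrane-bound collagenase inhibited by TIMP2, TIMP3 and RECK, had a signal of 7.20 in OAW42-R cells, compared with 9.24 in OAW42 cells, a difference of -2.04. MMP1, the interstitial collagenase, had 6.40 in OAW42-R cells and 5.37 in OAW42 cells, a difference of 1.03 whose OAW42 value was below the array's median. The other 10 differed by at most 0.12 in size. Of the TIMP-sensitive ADAM and ADAMTS genes, ADAM10, ADAMTS5 and ADAM17 differed by -0.19, -0.19 and -0.13. Of the 4 genes above the floor 3 were lower, and all 4 lay within 0.2 of equality.

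The list of cysteine cathepsins, the targets of cystatins, also held legumain (LGMN, -0.24). Its genes differed in both directions, 4 higher and 6 lower. CTSB, cathepsin B, had a signal of 11.09 in OAW42-R cells, against 9.89 in OAW42 cells, a difference of 1.20. CTSC, which activates granule serine proteases, had 10.24 in OAW42-R cells, compared with 11.21 in OAW42 cells (difference -0.97). CTSV differed by -0.33. The median over 10 genes was -0.075 and the median size 0.245, while the cystatin genes had a median of -0.065 over 8.

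The list of membrane serine proteases, among them targets of SPINT1 and SPINT2, also held HGFAC and MET of the hepatocyte growth factor pathway. Its genes above the floor were near equal, 4 higher and 4 lower. Over these 8 genes the median was -0.015 and the largest difference was 0.20, for TMPRSS4, followed by 0.09 for the prostasin gene PRSS8, with -0.07 for both the matriptase gene ST14 and TMPRSS6 and 0.07 for HPN. MET, the receptor of hepatocyte growth factor, had 11.32 in OAW42-R cells and 11.30 in OAW42 cells. Kallikreins had a median of -0.025 over 12 genes, 9 of them lower, and KLK13 differed by -0.27, KLK6 by 0.12 and KLK15 by -0.12. Granule serine proteases, the targets of SERPINB1 and SERPINB9, had a median of -0.06 over 6 genes, 5 of them lower, with GZMH at -0.16 and GZMB at 0.10. Beside these counts of lower kallikreins and granule proteases, 49.7% of all genes were lower.

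Inhibitors of other families had a median of 0.01 over 20 genes, 10 higher and 10 lower. SLPI, a leukocyte elastase inhibitor of mucosal surfaces, had 13.10 in OAW42-R cells, against 12.67 in OAW42 cells (difference 0.43). PI3, or elafin, differed by 0.21 and WFDC5 by -0.21. Of the receptors that clear inhibitor complexes, all 3 above the floor were higher, LRP8 by 0.45, LRP1 by 0.10 and VLDLR by 0.07. LRP1 and VLDLR thus lay within 0.2 of equality. Among the partners of SERPINH1 in collagen folding, 9 of 12 genes were higher and 3 lower, with a median of 0.03. Within 0.2 of equality lay 8 of these 12. Beside both counts of higher genes, 7417 of all 15910 genes above the floor were higher. P4HA1 and P4HA2, subunits of prolyl hydroxylase, differed by 0.60 and 0.31 and FKBP10 by 0.30, while SERPINH1 was at -0.11.

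**Figure D4:**
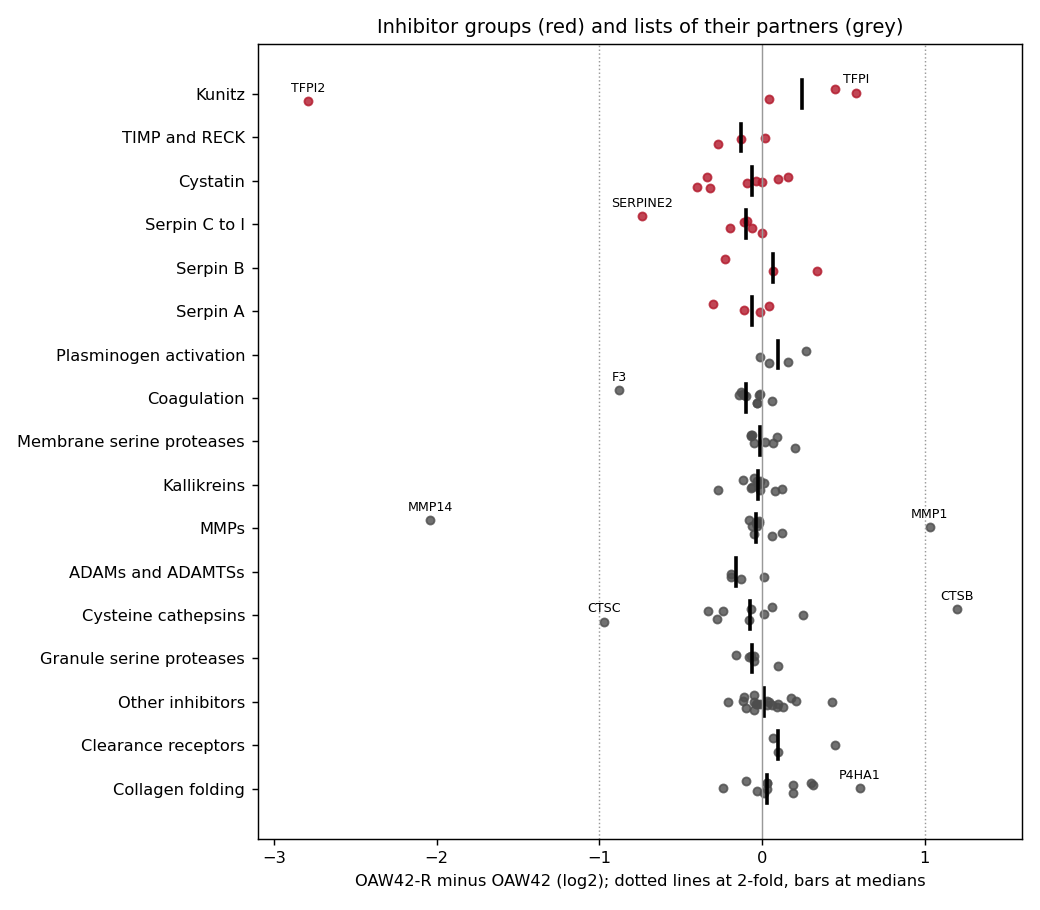
Difference OAW42-R minus OAW42 (log2, x axis) of each gene above the floor, for the 6 groups of inhibitors (red) and the 11 lists of proteases, receptors and other partners (gray), with bars at group medians and points spread vertically for legibility. TFPI2 (-2.79) and MMP14 (-2.04) lie left of the 2-fold line, MMP1 (1.03) and CTSB (1.20) lie right of it, and group medians run from -0.16 to 0.245.

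The labeled cell type was checked with markers. All 10 epithelial and ovarian carcinoma markers were above the floor in these lines, among them PAX8 with 11.67 in OAW42-R cells, compared with 11.40 in OAW42 cells. The floor was passed by 15910 of all 22348 genes, so passing it alone says little about cell type. Of these 10 markers EPCAM differed most, by 0.67, and its part in the differences of the inhibitors was not tested. WT1 and MUC16 had signals close to the array medians. Leukocyte, endothelial and fibroblast markers had mean signals between 5.69 and 5.81 in OAW42-R and between 5.68 and 5.78 in OAW42, below the array medians. Of these, 3 of 5, 2 of 5 and 3 of 5 markers were above the floor, COL1A1 among them with 7.83 in OAW42-R cells and 7.91 in OAW42 cells, and the leukocyte antigen gene PTPRC was at 4.21 in OAW42-R cells and 4.25 in OAW42 cells.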

How the data were processed

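Total RNA of OAW42-R and OAW42, 1 sample per line, was labeled as single-stranded cDNA and hybridized to Affymetrix human transcriptome arrays. The authors normalized the arrays by RMA, and the table they deposited holds 1 log2 signal for every transcript cluster and array. The RMA version and genome build are not given in the sources used here. RMA makes arrays alike in distribution and compresses folds near background, and the number of arrays limits the precision.

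Clusters with exactly 1 symbol in the platform annotation (23780 of 67524) were named, with symbols updated through RefSeq (GRCh38.p14), and 62 genes of the Y chromosome and XIST were left out. Where a gene had several clusters, the one with the highest mean signal was used. The floor was the 50th percentile. Genes above it with a difference of at least 0.4, or with the highest signal of their group, were described in full. Both signals were also given for some other genes with smaller differences or below the floor. Partner genes named were those at 2-fold and otherwise the largest differences of a list. To these, genes with a known link to an inhibitor were added after their values were seen. The members and all lists were chosen with earlier results of these data known. No test was made. Alternatives were 3 rescalings, other floors, other thresholds and other choices of cluster. The counting code was checked on simulated arrays with planted differences well beyond 2-fold in bright genes. That check does not cover small differences or genes near the floor. Python 3.11.15, numpy 2.4.6, pandas 2.3.3, statsmodels 0.14.6 and matplotlib 3.10.9 were used.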

Additional observations from a re-analysis of the deposited data

How the results depend on the processing

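No paired analysis was possible because each line had a single array and nothing was tested. For the same reason there was no replicate to leave out. Of 313 values recomputed, 303 stayed within 0.1 (log2), or within 1.5 times for counts. Many group medians were smaller than 0.1, so a median could change sign within that limit. The median of the membrane serine proteases did so, from -0.015 to 0.07 with the 75th percentile floor. The 313 also include values that could not move, those of genes with 1 cluster under other choices of cluster. TFPI2 stayed between -2.81 and -2.79, SERPINE2 between -0.77 and -0.74, TFPI between 0.55 and 0.58, SPINT2 between 0.43 and 0.45 and CST1 between -0.44 and -0.40. With the 75th percentile floor 6 inhibitor genes were lower and the median of the other inhibitors was 0.15. With no floor 16 were higher and 27 lower and the median of clade B was -0.03, since dim genes were added. At 1.5-fold, 2 inhibitor genes were lower and 322 of all genes were higher and 209 lower; at 4-fold TFPI2 was still counted, with 22 and 11 of all genes. Every inhibitor gene had 1 cluster, so the choice of cluster could not move it. SERPINE2, CST4 and SERPIND1 had a signal below the median of 1 array, which limits their folds.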
